A study of Mus musculus with 7 samples.

Results

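Respiratory complex I, the NADH:ubiquinone oxidoreductase of the inner mitochondrial membrane, was followed through the genes of its nuclear-encoded subunits and assembly factors. The members were all genes on the array whose platform symbol begins with Ndufa, Ndufb, Ndufc, Ndufs or Ndufv, the assembly factors named Ndufaf included. They came to 39 of the 12393 genes measured. Each was read from 1 probe set, the brightest over all arrays. Another 8 probe sets that name an Nduf gene together with a second symbol were left out.

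The RNA came from soleus, a slow, postural calf muscle, and was hybridised to 7 one-colour arrays. Of these, 3 were from wild type mice and 4 from mice with the genotype Yin Yang 1 (YY1) knockout, all 6 months old and on a mixed C57Bl/6 and 129 background. YY1 is a zinc finger transcription factor. The promoter or cell type behind the deletion, the sex of the mice and any pooling of animals are not named by any label used here, and no treatment is named for either group. The labels do not say that each array is a separate mouse, so p-values measure the spread between these arrays, which may be technical.

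Complex I takes electrons from NADH and passes them to ubiquinone, and it pumps protons across the inner membrane while doing so. It has an L shape. The matrix arm holds the NADH-oxidising module and the quinone module, with a flavin and a chain of iron-sulphur clusters, and the membrane arm holds the pumps, whose core is encoded by mitochondrial DNA. Around the catalytic core lie the accessory (supernumerary) subunits, and assembly factors join the modules without staying in the finished enzyme. Oxidative muscles such as the soleus are rich in mitochondria and in this enzyme.

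Short promoter sequences are shown first, because they show where the letters of a YY1-type motif lie in members that fell and in members that did not. In RefSeq's mouse promoter windows (build GRCm38.p6, from 250 bases before to 50 bases after the gene's start), 36 of the 39 members had a sequence, 2 of them with several windows. The motif searched was AANATGGC on both strands, N being any base. The first set below holds the members with the form AAGATGGC on the gene's own strand within 50 bases after the start. This set was singled out after the positions and values had been seen. Capitals mark the motif, and each stretch has 30 bases, 5′ to 3′ on the gene's strand.
Ndufa3: ccgccaagaacAAGATGGCcgggagtaagt
Ndufa9: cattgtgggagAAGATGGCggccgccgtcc
Ndufb8: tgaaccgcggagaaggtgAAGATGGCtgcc
Ndufc1: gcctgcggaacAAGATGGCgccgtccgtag
Ndufs4: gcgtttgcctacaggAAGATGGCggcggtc
Ndufs7: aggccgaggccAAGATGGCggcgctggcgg
These stretches lie at chr7:3617384-3617413 (plus strand) for Ndufa3, chr6:126849097-126849126 (minus) for Ndufa9, chr19:44555393-44555422 (minus) for Ndufb8, chr3:51408915-51408944 (minus) for Ndufc1, chr13:114388045-114388074 (minus) for Ndufs4 and chr10:80249462-80249491 (plus) for Ndufs7. Counting the start as base 1, the motif began at base 23 in Ndufa3 and Ndufc1, 25 in Ndufs7, 30 in Ndufa9, 36 in Ndufs4 and 39 in Ndufb8.

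A second set holds some of the 6 members whose match lay elsewhere in the window, given for contrast. The first 2 of those printed fell and the others did not pass the test. Ndufb10 (-0.38) and Ndufs8 (-0.21), whose matches also lay elsewhere, fell and are not printed.
Ndufb5: tgccctcactcAATATGGCctcctctagcg
Ndufb11: gtcaccaacacAAAATGGCgacgagaagag
Ndufa7: ggagcggaaggAATATGGCgtccgctactc
Ndufaf3: ccagacttggaGCCATTTTaaggagaaacc
They lie at chr3:32736979-32737008 (plus strand), chrX:20617812-20617841 (minus), chr17:33824616-33824645 (plus) and chr9:108567495-108567524 (minus). In Ndufaf3 the motif reads on the opposite strand. A match describes letters and does not show that a factor binds there.

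Yy1 itself was lower in the knockout arrays. On the log2 scale used throughout, log2(intensity + 1), it measured 9.32, 9.20 and 9.62 on wild type arrays 1 to 3 and 8.39, 8.24, 8.48 and 8.29 on knockout arrays 1 to 4. The groups did not overlap, and the difference was -1.02 (SE 0.10, limma adjusted p = 0.000213; two-sided exact permutation p = 0.0286, the smallest that these groups allow).

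Complex I transcripts were moderately lower in the knockout soleus. Of the 39 members, 25 fell at an adjusted p under 0.05 (limma, Benjamini-Hochberg over all 12393 genes), none rose and 14 did not pass. At an unadjusted p under 0.05 none rose either. Over all genes, 16% were called lower and 17% higher. In a fit of only the 6196 genes above the median level, 25.9% were called lower, and the same 25 members were called. The median log2 fold change of the members was -0.26, which is 83.6% of the wild type signal, beside 0.01 over all genes. Individual falls that passed the test ranged from 49.0% of wild type in Ndufa5 to 86.7% in Ndufs8. Altogether 12 members were under 70% of wild type, 14 between 70% and 90% and 13 above 90%. The knockout values lay wholly below the wild type values in 27 members and wholly above in 1, against 19.1% and 20.5% of all genes. Of the 25 calls, 17 held in all 16 other settings tried.

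The knockout arrays differed among themselves. Taken from the wild type mean, the median difference of the 39 members was -0.16 on knockout array 1, -0.37 on array 2, -0.30 on array 3 and -0.35 on array 4, and the wild type arrays lay between -0.03 and 0.02. Among the 25 members that fell, knockout array 1 held the highest of the 4 knockout values in 24, and array 2 held the lowest value of all in 18. Without knockout array 1 the same 25 members were called. In 35 of the 39 members the SD was larger in knockout than in wild type.

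**Figure D1:**
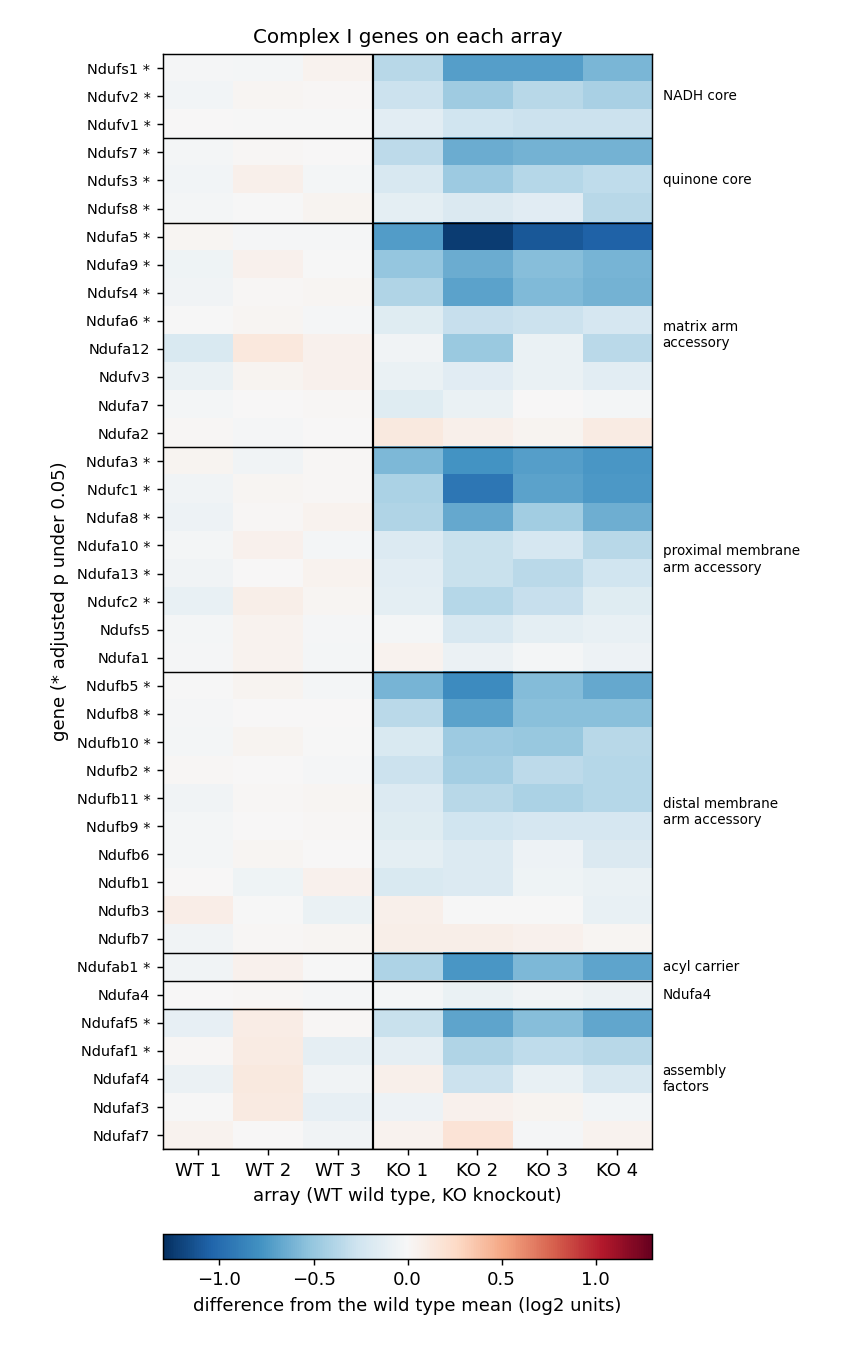
Heat map of 39 complex I genes (rows, grouped by place in the complex) on 7 arrays (columns); colour gives the difference from the wild type mean in log2 units, and stars mark genes with an adjusted p under 0.05. The blue shades fill the 4 knockout columns for most rows and are palest on knockout array 1, where the median difference was -0.16.

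In bulk muscle RNA, fewer cells of a type and less RNA per cell cannot be told apart. The 9 slow fibre markers measured (Myh7 and Tnni1 among them) had means of 13.71 log2 units or more, near the top of the scale. Some fast fibre markers were also bright, with wild type means of 15.21 for Tnni2 and 15.13 for Mylpf. Others were dimmer, with wild type means of 9.30 for Actn3, 11.30 for Pvalb and 11.52 for Myh4. Myh4 ran from 9.10 to 13.08 across the wild type arrays. Levels of different probe sets cannot be ranked, so the arrays do not tell soleus from a faster muscle. The slow markers' summed intensity was 263758 to 288580 in wild type and 306384 to 317572 in knockout, with 5 markers higher and 1 lower. Fast fibre markers summed to 242861 to 253419 in wild type and 180690 to 231348 in knockout, with 5 of 10 lower and 1 higher. All 10 macrophage markers were higher (sums 3709 to 4511 and 7938 to 13368) and all 9 endothelial markers lower (5178 to 5466 and 2528 to 2741). Of 7 fibroblast markers 5 were higher and none lower (sums 20020 to 23575 and 25607 to 38169). Of 5 adipocyte markers 2 were lower and 1 higher (14201 to 15585 and 7643 to 10646). Red blood cell markers gave 1 lower and none higher of 3 (194 to 252 and 132 to 186), Schwann cell markers 1 lower and none higher of 4 (1951 to 2458 and 1504 to 1845) and satellite cell markers 2 lower and 2 higher of 5 (2322 to 2454 and 2022 to 2292). Most of the adipocyte sum came from Fabp4 (wild type mean 13.57), and Adipoq did not pass. Most of the red blood cell sum came from Alas2 (7.37), since Slc4a1 and Hba-a1 were near background (5.01 and 4.91). No marker was at 0, since the array summary always leaves a background value; the lowest mean was 4.92 log2 units, for the haemoglobin gene Hba-a1. The part of these shifts in the complex I values was not tested.

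The catalytic core of the matrix arm was lower throughout. All 6 core subunits measured fell, with a median of -0.36, and the 5 of them that carry iron-sulphur clusters had a median of -0.38. In the NADH module, Ndufs1, the large subunit with several clusters, fell furthest. It measured 13.26, 13.24 and 13.31 in wild type and 12.91, 12.56, 12.55 and 12.68 in knockout. The groups were well apart, with knockout array 1 nearest to wild type, and the log2 fold change was -0.60 (SE 0.09, adjusted p = 0.00136). Ndufv2, which carries a further cluster, measured 14.19, 14.26 and 14.24 in wild type and 13.94, 13.76, 13.87 and 13.81 in knockout, a change of -0.38 (SE 0.06, adjusted p = 0.00162). Ndufv1, which binds the flavin and NADH, measured 14.24, 14.23 and 14.22 and then 14.08, 13.96, 13.95 and 13.95. Its groups were also apart, but the change was smaller, at -0.24 (SE 0.06, adjusted p = 0.0107).

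In the quinone module the same spread of sizes was seen. Ndufs7, the subunit with the last cluster of the chain next to ubiquinone, measured 13.87, 13.92 and 13.90 in wild type and 13.56, 13.25, 13.28 and 13.29 in knockout, a change of -0.55 (SE 0.08, adjusted p = 0.00114). Knockout array 1 stood above the other 3, which lay close together. Ndufs3 measured 13.68, 13.78 and 13.69 and then 13.51, 13.25, 13.34 and 13.38, with a change of -0.35 (SE 0.07, adjusted p = 0.00585). The ferredoxin-like subunit Ndufs8 changed least of the core, by -0.21 (SE 0.07, adjusted p = 0.0490). That call was lost without wild type array 1, 2 or 3 or knockout array 2, 3 or 4 (adjusted p = 0.0557 to 0.136), with no pseudocount (0.0501), in the fit over all probe sets (0.0538) and with quantile normalization (0.112). Of its 5 other probe sets, which lay between -0.14 and -0.47, 4 passed in a fit over all probe sets.

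Accessory subunits were more uneven: 17 of 27 fell, none rose and 10 did not pass, with a median of -0.26. No test was made between core and accessory subunits, since genes on the same arrays are not replicates. In the matrix arm, 4 of 8 fell. Ndufa5, an accessory subunit of the quinone module, had the lowest ratio of all members. It measured 13.31, 13.27 and 13.27 in wild type and 12.56, 12.05, 12.18 and 12.23 in knockout. All knockout values lay below all wild type values, and the change of -1.03 (SE 0.11, adjusted p = 0.000248) is a 2.04-fold lower signal.

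Ndufa9, a nucleotide-binding subunit that helps hold the matrix arm to the membrane arm, measured 13.69, 13.80 and 13.74 in wild type and 13.24, 13.10, 13.19 and 13.14 in knockout, a change of -0.58 (SE 0.06, adjusted p = 0.000204). Its knockout values were among the tightest of the strongly lowered members (SD 0.06, n = 4). Ndufs4, a late-joining subunit whose loss in mice causes a Leigh-like disease, measured 12.74, 12.80 and 12.80 and then 12.39, 12.08, 12.20 and 12.17, a change of -0.57 (SE 0.08, adjusted p = 0.000695). Ndufa6, a protein of the LYR family, fell by less, at -0.24 (SE 0.06, adjusted p = 0.0108).

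The other matrix arm subunits did not pass. Ndufa12 changed by -0.24 (SE 0.12, adjusted p = 0.177), and its wild type and knockout values overlapped, at 14.04 to 14.37 and 13.76 to 14.19. With its 4 probe sets averaged it did pass, at -0.28 (adjusted p = 0.00269). Ndufv3 changed by -0.12 (95% confidence interval -0.25 to 0.01) and Ndufa7 by -0.06 (-0.20 to 0.07). Ndufa2, a thioredoxin-fold subunit of the NADH module, was the only member with all knockout values above all wild type values. It measured 13.41, 13.38 and 13.40 in wild type and 13.53, 13.46, 13.44 and 13.51 in knockout. The difference of 0.08 (SE 0.05, adjusted p = 0.239) did not pass, although with quantile normalization it was 0.16 (adjusted p = 0.0311).

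In the part of the membrane arm next to the matrix arm, 6 of 8 accessory subunits fell, with a median of -0.26. Ndufa3, a small single-span membrane subunit, had the smallest p of all members. It measured 14.39, 14.31 and 14.37 in wild type and 13.77, 13.58, 13.64 and 13.60 in knockout, a change of -0.71 (SE 0.06, adjusted p = 0.000124). Ndufc1, another small membrane subunit, measured 14.10, 14.17 and 14.15 and then 13.72, 13.20, 13.44 and 13.39. Its knockout arrays were spread over more than those of most members (SD 0.22, n = 4), without reaching wild type, and it changed by -0.70 (SE 0.11, adjusted p = 0.0016).

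Ndufa8, a cysteine-rich subunit on the intermembrane-space face, changed by -0.53 (SE 0.08, adjusted p = 0.00124). Ndufa10, related to deoxynucleoside kinases, and Ndufa13, also known as GRIM-19, both changed by -0.26 (SE 0.06 each; adjusted p = 0.0118 and 0.0156). The Ndufa13 call was lost without wild type array 3 (adjusted p = 0.0581). Ndufc2 measured 13.39, 13.55 and 13.50 in wild type and 13.36, 13.11, 13.18 and 13.32 in knockout. Its groups almost touched, and its change of -0.24 (SE 0.08, adjusted p = 0.0444) was not called without wild type array 2 or 3 or knockout array 2, 3 or 4 (0.0519 to 0.147), nor after median centring (0.0661) or quantile normalization (0.12). Ndufs5 changed by -0.12 (95% confidence interval -0.25 to 0.02) and Ndufa1, an X-linked subunit, by -0.03 (-0.16 to 0.09). Ndufa1 was the nearest to 0 of the Ndufa genes, with 14.28, 14.34 and 14.27 in wild type and 14.34, 14.22, 14.27 and 14.22 in knockout, fully overlapping.

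Among the Ndufb genes, which encode accessory subunits of the distal membrane arm, 6 of 10 fell, with a median of -0.27. Ndufb5 led with 14.34, 14.38 and 14.33 in wild type and 13.74, 13.53, 13.78 and 13.68 in knockout, a change of -0.66 (SE 0.07, adjusted p = 0.000233). Here knockout array 3, not array 1, lay nearest to wild type. Ndufb8, a subunit widely used as an antibody marker of complex I, measured 14.18, 14.20 and 14.20 and then 13.84, 13.50, 13.65 and 13.65, a change of -0.53 (SE 0.08, adjusted p = 0.00131). Ndufb10 measured 13.61, 13.68 and 13.63 and then 13.44, 13.16, 13.14 and 13.28, a change of -0.38 (SE 0.08, adjusted p = 0.00595). None of these 3 genes had overlapping groups.

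Smaller falls were seen in Ndufb2 (-0.36, SE 0.06), the X-linked Ndufb11 (-0.33, SE 0.07) and Ndufb9, a LYR protein like Ndufa6 (-0.21, SE 0.05). The cysteine-rich Ndufb7, at 0.06 (95% confidence interval -0.06 to 0.17), Ndufb3, at -0.01 (-0.16 to 0.14), and Ndufb1, at -0.13 (-0.27 to 0.01), did not pass. Ndufb3 was nearest to 0, with 13.72, 13.63 and 13.55 in wild type and 13.70, 13.63, 13.63 and 13.54 in knockout, values that cannot be told apart. Ndufb6 changed by -0.14 (adjusted p = 0.0862), with no overlap between the groups. It passed when its 2 probe sets were averaged (-0.26, adjusted p = 0.0283) and with the trended, robust fit (adjusted p = 0.0496).

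**Figure D2:**
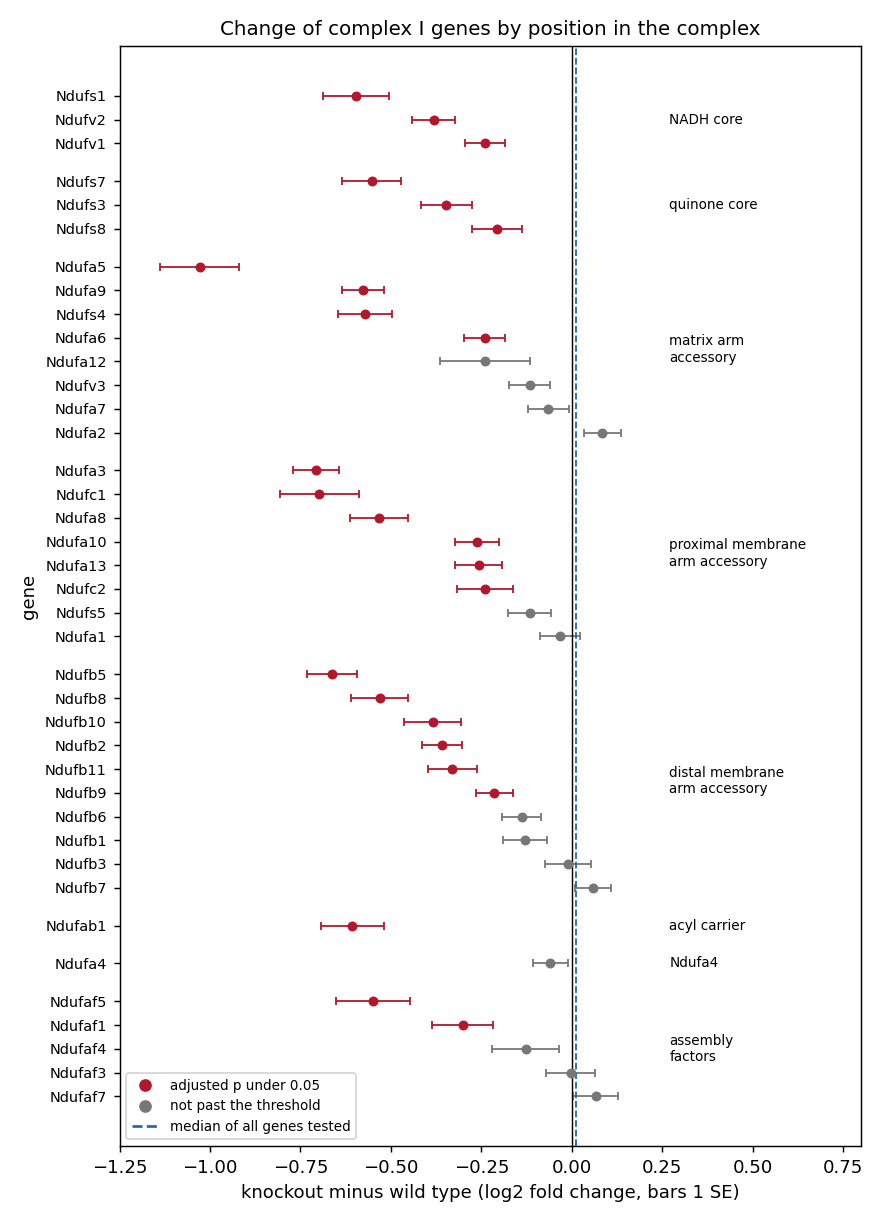
Log2 fold changes (knockout minus wild type; points, with bars of 1 SE) of the 39 genes by place in the complex, red where the adjusted p was under 0.05; the dashed line is the median of all genes, 0.01. Every core subunit is red, and the accessory groups of the matrix arm and of the proximal and distal membrane arm each hold red and grey genes, from -1.03 in Ndufa5 to 0.08 in Ndufa2. The acyl carrier protein Ndufab1, a group of its own, is red.

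Ndufab1, the mitochondrial acyl carrier protein, sits in both arms of the complex, where it binds LYR subunits, and also serves fatty acid synthesis and iron-sulphur cluster assembly. It measured 14.03, 14.12 and 14.06 in wild type and 13.67, 13.31, 13.49 and 13.39 in knockout. The change was -0.61 (SE 0.09, adjusted p = 0.00102), with 13.67 on knockout array 1 the nearest to wild type. Ndufa4, once counted in complex I and now assigned to cytochrome c oxidase, measured 14.50, 14.52 and 14.49 and then 14.47, 14.41, 14.46 and 14.43. Its groups did not overlap, but the difference was only -0.06 (95% confidence interval -0.17 to 0.05; adjusted p = 0.393).

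Of the 5 Ndufaf assembly factors, 2 fell and 3 did not pass, with a median of -0.13. Ndufaf5, which hydroxylates an arginine of Ndufs7, measured 9.46, 9.66 and 9.58 in wild type and 9.27, 8.88, 9.02 and 8.90 in knockout, a change of -0.55 (SE 0.10, adjusted p = 0.00384). Ndufaf1, which acts on an intermediate of the membrane arm, measured 11.22, 11.31 and 11.09 and then 11.09, 10.81, 10.87 and 10.85. Knockout array 1 overlapped with wild type, and the change of -0.30 (SE 0.08, adjusted p = 0.0250) lost its call without wild type array 1 or 2 or knockout array 2, 3 or 4 (0.0583 to 0.0972), which left 1 assembly factor lower. Ndufaf4, which helps build the quinone module with Ndufaf3, changed by -0.13 (adjusted p = 0.333), and its other probe set by -0.57 (SE 0.12). The average of these 2 passed (-0.35, adjusted p = 0.0316).

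Ndufaf3 was the nearest to 0 of all members. It measured 10.05, 10.18 and 9.96 in wild type and 10.00, 10.12, 10.10 and 10.02 in knockout, with a 95% confidence interval of -0.16 to 0.15 for the difference. Ndufaf7, a methyltransferase that acts early in assembly, changed by 0.07 (-0.08 to 0.21). For the genes near 0 the sign depended on scaling: with quantile normalization Ndufa1, Ndufa4, Ndufa7, Ndufb3 and Ndufaf3 were slightly above 0. Ndufaf3 was above 0 after median centring as well.

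By name class, 8 of 13 Ndufa genes (Ndufab1 and Ndufa4 among them), 6 of 10 Ndufb, both Ndufc, 5 of 6 Ndufs, 2 of 3 Ndufv and 2 of 5 Ndufaf genes fell. The class medians were -0.26, -0.27, -0.47, -0.45, -0.24 and -0.13 in that order. The count for Ndufc was 1 without wild type array 2 or 3 or knockout array 2, 3 or 4, and 1 after median centring or quantile normalization, each time through Ndufc2. The classes were not tested against each other. Nearest to 0 were Ndufc2 in its class, Ndufs5 among the Ndufs genes, with 13.32, 13.38 and 13.32 in wild type and 13.31, 13.13, 13.21 and 13.24 in knockout, and Ndufv3 among the Ndufv genes. Ndufv3 measured 13.73, 13.85 and 13.88 in wild type and 13.73, 13.68, 13.73 and 13.68 in knockout, its groups meeting at 13.73.

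Further probe sets of the same genes, not counted above, mostly pointed the same way. The 39 genes had 74 probe sets with 1 symbol, and 20 genes had several. All 25 other probe sets of members that fell were below 0, and 22 passed in a fit over all 20380 probe sets with 1 symbol, where 14.8% were called lower. These 25 belong to genes already called on the same arrays, and the 14.8% covers unselected probe sets. Their agreement is therefore no separate support. In 17 of the 25 the fall was larger than in the brightest probe set. The brightest was picked by its mean over all 7 arrays, knockout included, which can favour a smaller fall. Ndufs4 changed by -1.13 (SE 0.14) and -0.75 (SE 0.11) in its other probe sets, against -0.57, and Ndufa10 by -0.71 (SE 0.17) against -0.26. These other probe sets were dimmer. Their wild type means were 9.95 and 9.83 against 12.78 for Ndufs4, and 8.94 against 13.84 for Ndufa10. Among members that did not pass, 4 of 10 other probe sets passed, 2 of Ndufa12, 1 of Ndufa7 and 1 of Ndufaf4. Probe sets of 1 gene share the arrays and are not replicates, and those of the _x_at or _s_at type can take up related transcripts.

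**Figure D3:**
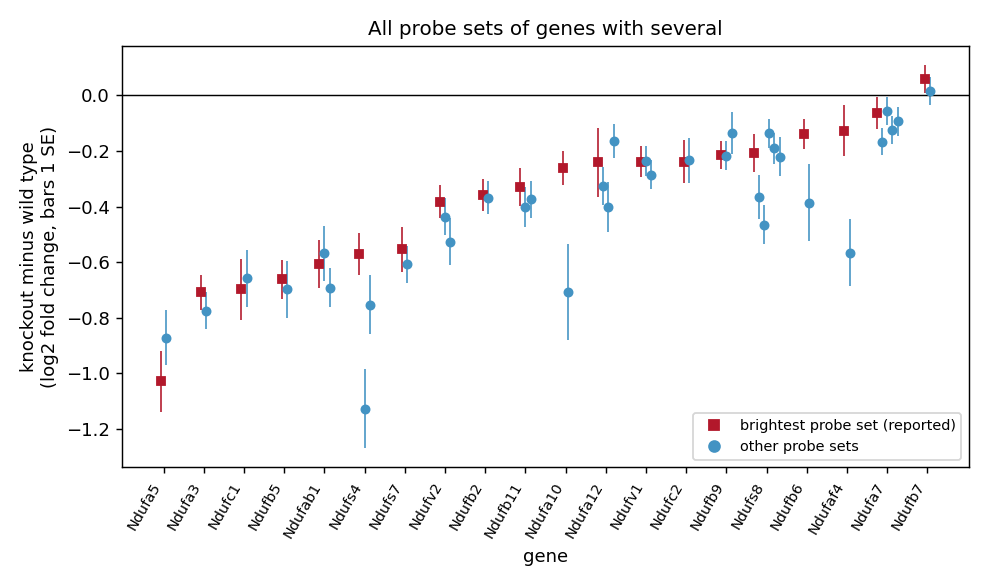
Log2 fold change (vertical, bars of 1 SE) of every probe set of the 20 genes with several; red squares are the brightest probe sets, used for the values in the text, and blue circles the others. The circles lie below 0 for all genes but Ndufb7, and lie well under the square in Ndufs4 (-1.13 against -0.57) and Ndufa10.

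Genes on lists linked with complex I, here and in the next paragraph, also moved down more often than up. Over all genes, 16% were called lower and 17% higher. In the fit of genes above the median level, 25.9% were called lower. Of 6 measured assembly factors without an Ndufaf name, 5 fell and none rose (median -0.38). Ecsit changed by -0.49 (SE 0.07, adjusted p = 0.000884) and Acad9, an acyl-CoA dehydrogenase relative, by -0.41 (SE 0.07, adjusted p = 0.00247); both belong to the machinery that builds the membrane arm. Of 7 genes of import into the intermembrane space and of LYR proteins, 4 fell and 1 rose. Etfrf1, a LYR protein that regulates electron transfer flavoprotein, changed by -0.77 (SE 0.10) and Aifm1, needed for import of cysteine-rich subunits, by -0.57 (SE 0.09), while Sdhaf1, an assembly factor of complex II, rose by 0.22 (SE 0.05, adjusted p = 0.014). Chchd4, the import receptor of those subunits, measured 0.03 (SE 0.08).

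NADH reaches complex I from the matrix, and cytosolic reducing equivalents come in by shuttles. Of 9 shuttle and transhydrogenase genes, 6 fell and none rose, with a median of -0.57. Slc25a13, an aspartate/glutamate carrier, changed by -1.12 (SE 0.13, adjusted p = 0.000435) and Got1, the cytosolic aspartate aminotransferase, by -0.61 (SE 0.08, adjusted p = 0.000504). The Slc25a13 signal was dim, with a mean of 7.12 log2 units in wild type and 6.00 in knockout. The list for complexes II to V had 42 measured genes, among them Cycs and Atpif1, which are not subunits. Of these 42 genes, 25 fell and none rose, with a median of -0.24. The 33 subunits of complex I proper had a median of -0.26, and 23 of them fell. Uqcrc1, a core protein of complex III, changed by -0.80 (SE 0.09) and Atp5o, of the ATP synthase stalk, by -0.70 (SE 0.07). The complexes were not tested against each other.

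Members with a YY1-type match in the promoter window were lowered more often than members without one, as a count. Of the 38 member windows, 12 (31.6%) held AANATGGC, beside 6.05% of all 32851 mouse windows of the same length. Those windows were not limited to genes on the array, so the 6.05% is not a like background. Among the genes tested with a promoter sequence, 845 held a match and 9042 did not. Of the 12 genes with a match, 10 fell, with a median of -0.54. Among the 24 without a match, 13 fell, with a median of -0.24. Over all genes tested with a promoter sequence, 28.8% of 845 with a match and 15.1% of 9042 without were called lower.

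The 6 members with AAGATGGC just after the start, printed above, all fell, between -0.53 in Ndufb8 and -0.71 in Ndufa3, with a median of -0.57. This narrower form was singled out after the positions and values had been seen. It stood in 0.865% of all windows, which were not limited to genes on the array. Of the 192 genes tested that hold it, 44.8% were called lower, beside 15.7% of the other 9695. Of the 6 members with a match elsewhere, 4 fell (median -0.27). Ndufa5, the most lowered member, had no YY1-type match in its windows. No test was made of any of these counts, and the members sit in different parts of the complex: Ndufa9 and Ndufs4 in the matrix arm, Ndufs7 in the quinone core, Ndufa3 and Ndufc1 near the junction and Ndufb8 at the distal end.

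The same counts were made for the other motifs searched, and the motifs were not tested against each other. The shares of all windows are again not limited to genes on the array. The NRF1-type motif was in 18.4% of member windows and 4.60% of all windows, and 4 of 6 genes with it fell (median -0.39), as did 19 of 30 without (median -0.26). The ERR-type motif AAGGTCA was in 5.26% and 4.72% of windows. With it 1 of 2 genes fell (median -0.24), and without it 22 of 34 (median -0.26). The ETS-type motif CCGGAAG was in 13.2% and 8.86% of windows. With it 3 of 5 genes fell (median -0.21), and without it 20 of 31 (median -0.26). Over all genes tested with a promoter sequence, 17.5% with the NRF1-type motif were called lower and 16.1% without. The shares were 16.5% and 16.3% for the ERR type and 16.6% and 16.2% for the ETS type. Both strands were searched, and no match of 1 motif overlapped with a match of another in the members' windows.

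**Figure D4:**
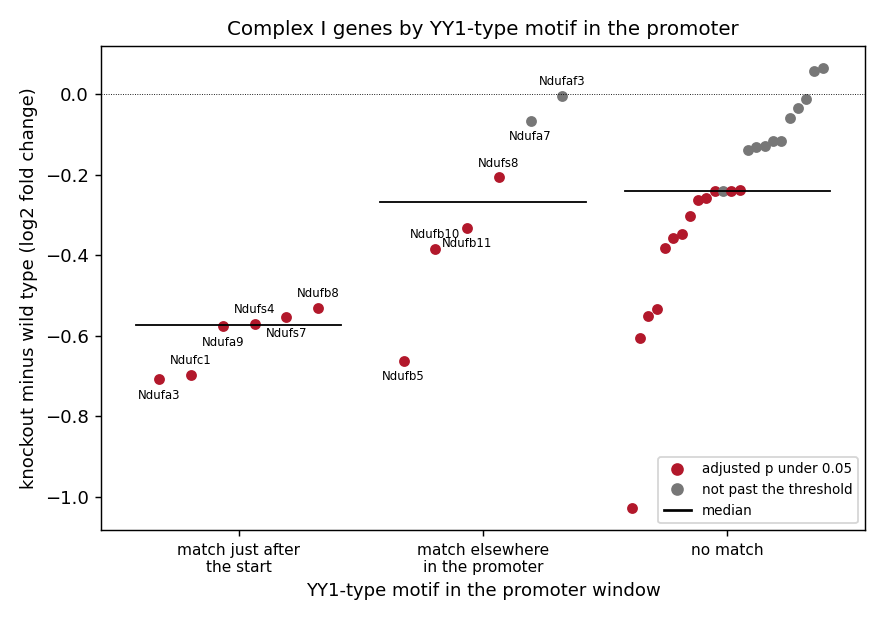
Log2 fold change (knockout minus wild type, vertical) of 36 complex I genes with a promoter sequence, by whether the YY1-type motif lay just after the start, elsewhere in the window or nowhere; lines are medians (-0.57, -0.27 and -0.24) and red points had an adjusted p under 0.05. All 6 genes of the first column are red, and the third column spans the range from Ndufa5 at -1.03 to above 0. The first column was singled out after the positions and values had been seen, so its colours are no support for the motif.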

How the data were processed

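The authors deposited 1 linear intensity per probe set and array; RMA is named per the submitters' processing notes, and of its version, the probe annotation and the genome build nothing is given in the sources used here. Values were taken to log2(intensity + 1). Of 22690 probe sets, 64 controls were left out and 20380 had 1 gene symbol; symbols were updated through RefSeq (12369 of 12393 genes matched), and the brightest probe set stood for a gene. Knockout was compared with wild type by limma 3.58.1 (lmFit, eBayes, two-sided; R 4.3.3) without covariates over all genes, with Benjamini-Hochberg adjustment and a threshold of 0.05. Dim genes were kept. Precision is limited by the number of arrays, and scan dates were not used here. No 2 arrays were duplicates: at most 1819 values were equal in a pair. The script was tested on simulated data. Columns of other samples numbered 0.

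The members, lists and structural groups were chosen with earlier results of these data known. Values on each array are given for Yy1, for up to 3 members per name class with the largest change past the threshold in each direction and for the member nearest to 0; of each pathway list, up to 2 genes per direction are named. Array values of Ndufa2, Ndufa4, Ndufa9 and Ndufs3, and the value of Chchd4, were added after they were seen. Alternatives were another pseudocount, a filter on dim genes, median centring, quantile normalization, averaged probe sets, all probe sets in the fit, a trended and robust fit, the replicate number as a block, and each array left out in turn. Promoter windows came from RefSeq (GRCm38.p6).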

Additional observations from a re-analysis of the deposited data

Results flagged for a closer look

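Among the 4 knockout values of each gene, 40 genes (the 39 members and Yy1) were checked for a value far from the others, and 2 stood out, both through knockout array 1. In Ndufs7 that array measured 13.56 and the other 3 lay between 13.25 and 13.29, a gap of 0.878 of the whole range, above Dixon's critical value. In Ndufv1 it measured 14.08 and the others lay between 13.95 and 13.96, a gap of 0.897. Chance marks about 1 in 20 groups of this size. Without knockout array 1 both genes were still called lower.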

How the results depend on the processing

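The number of members lower in knockout was 25, between 17 and 28 under the other settings with all arrays and between 22 and 25 with an array left out; the median log2 fold change stayed between -0.30 and -0.20. Quantile normalization gave 1 member higher (Ndufa2) and, as did median centring, 1 Ndufc gene lower. Leaving out 1 array gave 1 to 2 lower for Ndufc, for Ndufaf and for the assembly factors as a module. Near 0, signs turned: quantile normalization gave 0.030 for Ndufa1, 0.0028 for Ndufa4, 0.018 for Ndufa7, 0.0086 for Ndufaf3 and 0.052 for Ndufb3, median centring gave 0.0052 for Ndufaf3, and with an array left out Ndufaf3 ran from -0.055 to 0.054 and Ndufb3 from -0.052 to 0.034. The causes were not tested.

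Wild type and knockout arrays 1 to 3 carry the same replicate numbers, but the arrays did not vary together by number (correlations of deviations 0.029, -0.13 and 0.017 for the same-numbered arrays; 0 of 3 arrays of either group correlated best with their own number). With the replicate number as a block, 17 members were called lower, all among the 25. Knockout array 4, alone in its block, does not enter the difference in that fit. The calls lost were Ndufa6, Ndufa10, Ndufa13, Ndufaf1, Ndufb9, Ndufc2, Ndufs8 and Ndufv1 (adjusted p = 0.0601 to 0.176), which left 2 core subunits each in the NADH and quinone modules. The counts were 5 for Ndufa, 1 each for Ndufaf, Ndufc and Ndufv, 3 for the proximal membrane arm and 1 for the assembly factors, and Ndufaf3 (0.0090) and Ndufb3 (0.017) changed sign. Yy1 stayed called.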
